A study of Mus musculus with 4 samples.

Results

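The genes that encode the oxidative phosphorylation machinery were compared between the livers of food-deprived and control mice, in fetuses and in their mothers. Members were taken by gene name from the arrays: every gene probe whose name starts with Nduf, Uqcr or Atp5, is Sdha, Sdhb, Sdhc or Sdhd, or is Cox4 to Cox8 followed by a letter. This rule found 82 genes on 113 probes, of 28785 genes on 41174 probes. Of the 82, 79 encode subunits: 35 of complex I, 4 of complex II, 7 of complex III, 18 of complex IV and 15 of complex V (ATP synthase). The other 3 genes matched by name alone and are given apart: Ndufaf1 is an assembly factor, and the RefSeq table names Atp5s and Cox4nb Dmac2l and Emc8.

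All animals were C57BL/6J, a common inbred laboratory strain, and carried no stated transgene or mutation. The control pools came from animals labelled control and the other pools from animals labelled food deprivation (FD), and the housing text for both names chow and tap water without restriction and a light-dark cycle. How long the deprivation lasted, the stage of gestation, the ages and the fetal sexes stand in none of the sources used here. RNA of 5 to 10 animals was pooled per condition, and each comparison, fetal or maternal, was hybridised on 2 two-colour arrays of 1 slide with the dyes swapped: the FD pool was in Cy5 on the first array and in Cy3 on the second. The labels number the pooled samples 1 and 2 along with the dye orientation, while the design text speaks of pooled RNA that was dye-swapped. Both arrays of a pair were taken here to carry the same pools, so each condition was counted as 1 sample and no test was made. If the numbers mark separate pools, the spread between the first and second array also holds that between pools, and otherwise it is technical. In these bulk samples, fewer cells of a type and less RNA per cell cannot be told apart.

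Oxidative phosphorylation takes place in the inner mitochondrial membrane. Complexes I and II pass electrons from NADH and succinate to ubiquinone, complex III passes them on to cytochrome c and complex IV to oxygen. Complexes I, III and IV pump protons as they do so, and complex V uses the proton gradient to make ATP. The liver is rich in mitochondria and, in fasting, oxidises fatty acids to fuel glucose and ketone body production. The members are nuclear genes, and the core subunits encoded by mitochondrial DNA do not fall under the rule.

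Each array carried 43379 gene spots, of which 53.2% to 69.7% were well above background in a given channel. None was saturated, and 215 to 257 spots per array were left out as outliers. Hepatocyte markers were well above background on both arrays in every pool (6 of 6 on the array, of 8 listed). The fetal hepatocyte markers Afp, H19, Igf2 and Dlk1 had a median difference of -7.57 between the maternal and the fetal control pool (log2), in which the value of Dlk1, not well above background in both maternal pools, is only a bound.

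Values are log2 ratios of the FD over the control pool, given as first array, second array and mean. The 2-fold rule asked for a mean of 2-fold or more, with 1.5-fold or more on each array in 1 direction. The 25% rule asked that, on both arrays and in 1 direction, the brighter pool lie at least 25% above the dimmer one. Each gene was read from its brightest measured probe. A ratio can only be read through the 60-base probe behind it, and 4 probes on which results below rest are shown, each with a reading frame free of stop codons over its whole length. They stand for Sdhb, with the largest maternal minus fetal difference, Atp5k, close behind it, Cox7a1, past 2-fold between the control pools, and Ndufs8, lower in the FD mother. In the build of the files, mm7, the Sdhb probe is placed on the plus strand at chr4:140345040-140349607, the Ndufs8 probe on the minus strand at chr19:3806006-3806374 and the Atp5k probe on the minus strand at chr5:107614717-107614972. Each of these spans covers more than the 60 bases of its probe (4568 bases for Sdhb, 369 for Ndufs8 and 256 for Atp5k), so each probe lies on at least a pair of separate genomic stretches. The files give no position for the Cox7a1 probe.
Sdhb: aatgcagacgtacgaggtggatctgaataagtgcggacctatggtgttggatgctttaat
Ndufs8: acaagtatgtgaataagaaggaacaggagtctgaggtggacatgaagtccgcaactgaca
Cox7a1: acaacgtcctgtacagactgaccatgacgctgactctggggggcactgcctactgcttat
Atp5k: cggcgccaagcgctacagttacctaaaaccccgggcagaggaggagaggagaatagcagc

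In the fetal liver, most subunits had small ratios above 0. Of the 72 subunits measured, 66 had a mean above 0, and their median was 0.17 (0.24 on the first array, 0.11 on the second), against 0.00 over all 18060 measured genes, of which 51.2% lay above 0. On both arrays, 53 subunits were above 0 and 3 below. By the 25% rule, 6 subunits rose (Sdhd, Sdhb, Cox7a2l, Ndufs7, Uqcrfs1 and Ndufb9), which is 8.33% of those measured, against 3.86% of all genes. None fell, against 2.38% of all genes. By the 2-fold rule no subunit was called in either direction, against 0.465% of all genes higher and 0.266% lower. With median centring of each array in place of the intensity-dependent (loess) correction none of the 6 was called, and with the scanner software's processed signals Cox7a2l and Ndufb9 were not. Under median centring 0.958% of all genes were higher. Genes within the subunits' interquartile intensity range then had medians of 1.16 on the first array and -0.65 on the second. At that brightness the arrays took opposite signs, so median centring cannot show whether these calls hold. Of 9 erythroid markers measured in the fetus all had a mean below 0 (median -0.21, 1 past the 25% rule), and their part in these values was not tested.

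Brightness moved with these shares. The subunits were among the brightest probes (median at the 96.7th percentile of measured genes in the fetus), and of the 975 genes within the subunits' interquartile intensity range, 9.64% were higher by the 25% rule. The share of subunits called higher thus lay near that of equally bright genes, while their median did not: these genes had a median of 0.00 and 49.7% lay above 0. Among the 8 subunits in the brightest 1% the arrays parted, with medians of 0.43 on the first and -0.05 on the second, as for all genes that bright (0.24 and -0.19). Without these 8 the median of the subunits was 0.17, and 58 of 64 were above 0.

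In the maternal liver the subunits were centred near 0. Of 77 measured, 36 had a mean above 0, and the median was -0.01 (0.04 and -0.06), against -0.01 over all 16153 measured genes. By the 25% rule 2 subunits rose, Ndufs7 and Cox7a2l (2.60%, against 6.93% of all genes), and 3 fell, Sdha, Atp5k and Ndufs8 (3.90%, against 9.7% of all genes). Of the 755 genes within the subunits' interquartile intensity in the mother, 17.9% were higher and 19.5% lower by this rule. None was called by the 2-fold rule, against 1.56% of all genes higher and 1.88% lower. Median centring ended all 5 calls, and the processed signals ended that of Atp5k. Under median centring 0.489% of all genes were higher and 1.24% lower, and equally bright genes had medians of 1.47 and -1.64 on the arrays.

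**Figure D1:**
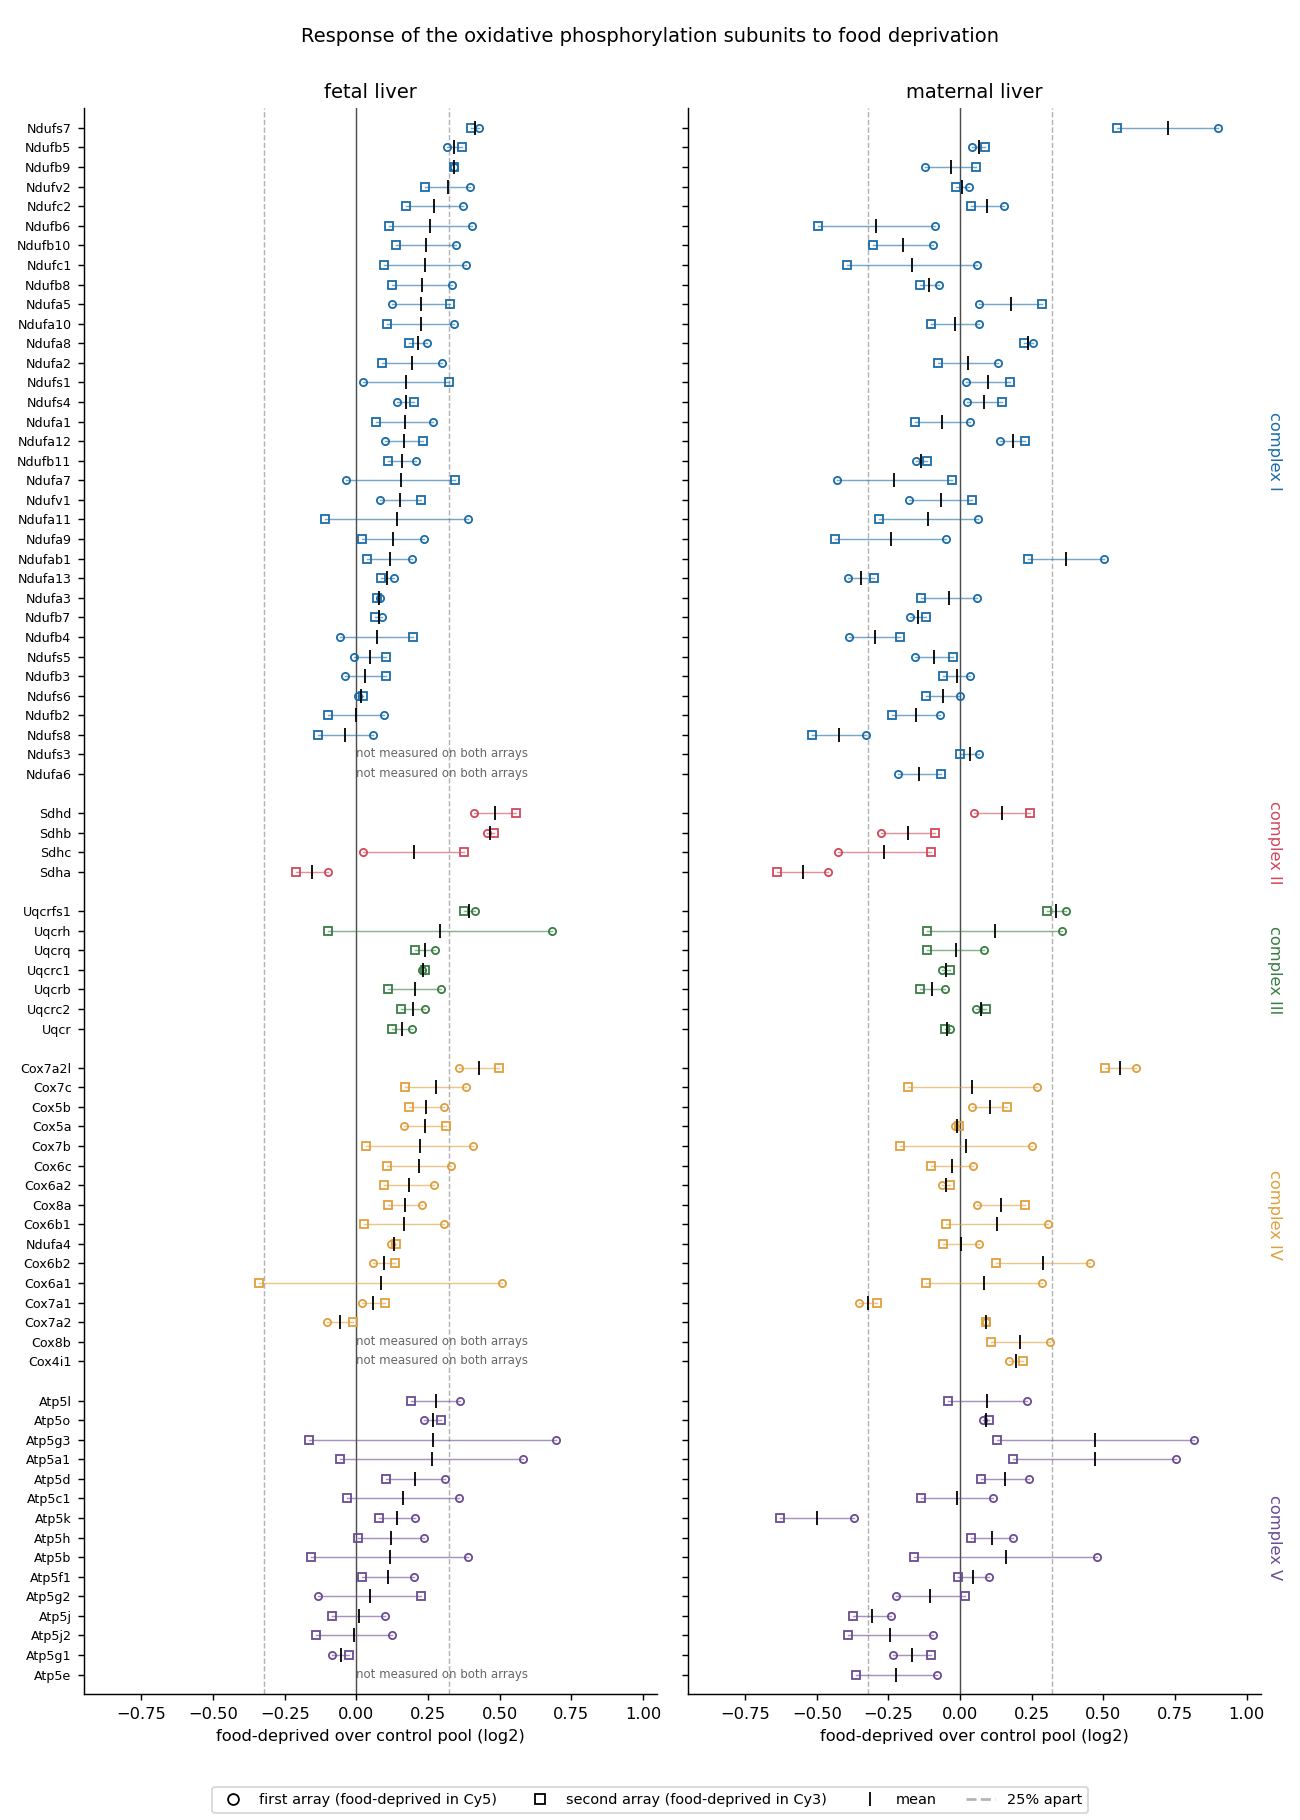
Log2 ratio of the food-deprived over the control pool (x axis) for each subunit measured in the mother (rows, grouped by complex and sorted by the fetal mean), in fetal liver (left) and maternal liver (right); circles are the first array, squares the second, black ticks the mean, and dashed lines mark a level 25% apart, and 1 measured subunit is not drawn. Most fetal means lie above 0, maternal means lie on both sides of it, and Sdha lies lowest on both sides.

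The complexes had different medians. Fetal medians were 0.17 for complex I, 0.33 for complex II, 0.23 for complex III, 0.18 for complex IV and 0.13 for complex V. Maternal medians were -0.06, -0.22, -0.01, 0.09 and 0.05 in the same order. Complex II, with the highest fetal and the lowest maternal median, rests on 4 genes, and the fetal median of complex V was 0.24 on the first array and -0.01 on the second. In the mother the median of complex II was below 0 on both arrays (-0.35 and -0.10), while the others took opposite signs on the arrays: 0.02 and -0.07 for complex I, 0.06 and -0.05 for complex III, 0.13 and -0.02 for complex IV, and 0.10 and -0.04 for complex V. Those of complexes IV and V were 0.00 and -0.04 with median centring. That of complex III turned above 0 with the mean over probes (0.07), and that of complex V below 0 without the subunits in the brightest 1% (-0.10). These medians are descriptions, and whether the complexes differ was not tested.

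Complex I, the NADH dehydrogenase, had 31 of 33 measured subunits above 0 in the fetus, and 12 of 35 lay above 0 in the mother. Its subunits form the N module, which binds and oxidises NADH, the Q module, which reduces ubiquinone, and the membrane arm, which pumps protons. The N module had medians of 0.17 in the fetus (8 measured) and 0.01 in the mother (9 measured), and the Q module 0.20 (4) and 0.03 (5). The membrane arm had 0.16 and -0.10 (20 in both), with 19 of its 20 genes above 0 in the fetus, and in the mother 4 of 20.

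Ndufs7, an iron-sulfur subunit of the Q module, was the subunit with the highest maternal mean. Its ratio was 0.43 and 0.40 in the fetus (mean 0.41, 1.33-fold) and 0.90 and 0.55 in the mother (mean 0.72, 1.65-fold). Its levels, as normalised log2 intensity, were 12.34 and 12.61 in the fetal control pool, 12.76 and 13.01 in the fetal FD pool, 12.13 and 12.39 in the maternal control pool and 13.04 and 12.93 in the maternal FD pool, so that the FD values lay above the control values on both sides. Ndufs8, another iron-sulfur subunit of the same module, fell in the mother (-0.33 and -0.52, mean -0.42, 1.34-fold). In the fetus it was 0.06 and -0.14, with a mean of -0.04, the lowest of complex I. The module thus held the complex I genes with the highest and the lowest mean on both sides.

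Ndufb9, of the membrane arm, rose in the fetus (0.34 on both arrays) and was at -0.12 and 0.06 in the mother. Ndufb6, also of the membrane arm, was at 0.40 and 0.11 in the fetus and at -0.09 and -0.50 in the mother. Ndufa13, known also as a regulator of cell death, was at 0.13 and 0.09 in the fetus and at -0.39 and -0.30 in the mother. None of the last pairs of values passed a rule within its own comparison. Ndufab1, the mitochondrial acyl carrier protein, was given by 4 probes. Those well above background spread over 0.56 in the fetus, the widest range of any member, and the gene is therefore not described by its brightest probe alone.

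Complex II, succinate dehydrogenase, belongs to both the respiratory chain and the citric acid cycle, and its 4 subunits did not move alike. Sdhb, the iron-sulfur subunit, rose in the fetus by 0.46 and 0.48 (mean 0.47, 1.38-fold). Sdhd, a membrane anchor, rose there by 0.41 and 0.56 (mean 0.48, 1.40-fold), the highest mean of all subunits. Sdhc, the other anchor, was at 0.02 and 0.38. Sdha, the flavoprotein that oxidises succinate, had the lowest fetal mean of all subunits (-0.10 and -0.21, mean -0.16) and passed no rule there.

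In the mother Sdha fell (-0.46 and -0.64, mean -0.55, 1.46-fold), the lowest mean of all subunits. Sdhc was at -0.43 and -0.10, Sdhb at -0.28 and -0.09 and Sdhd at 0.05 and 0.24. The levels of Sdhb were 12.41 and 12.43 in the fetal control pool, 12.87 and 12.91 in the fetal FD pool, 13.51 and 13.28 in the maternal control pool and 13.23 and 13.19 in the maternal FD pool. The 2 fetal FD values thus lay above the fetal control values, and the maternal FD values below the maternal control values, without overlap. The levels of Sdha were 10.48 and 10.46, 10.38 and 10.25, 11.87 and 11.82, and 11.41 and 11.18 in the same order of pools. Sdha had a second, dimmer probe with other fetal values: its mean ratio was 0.29 in the fetus, against -0.16 for the brighter probe, and -0.16 in the mother. The fall of Sdha in the mother therefore rests on 1 of its 2 probes.

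**Figure D2:**
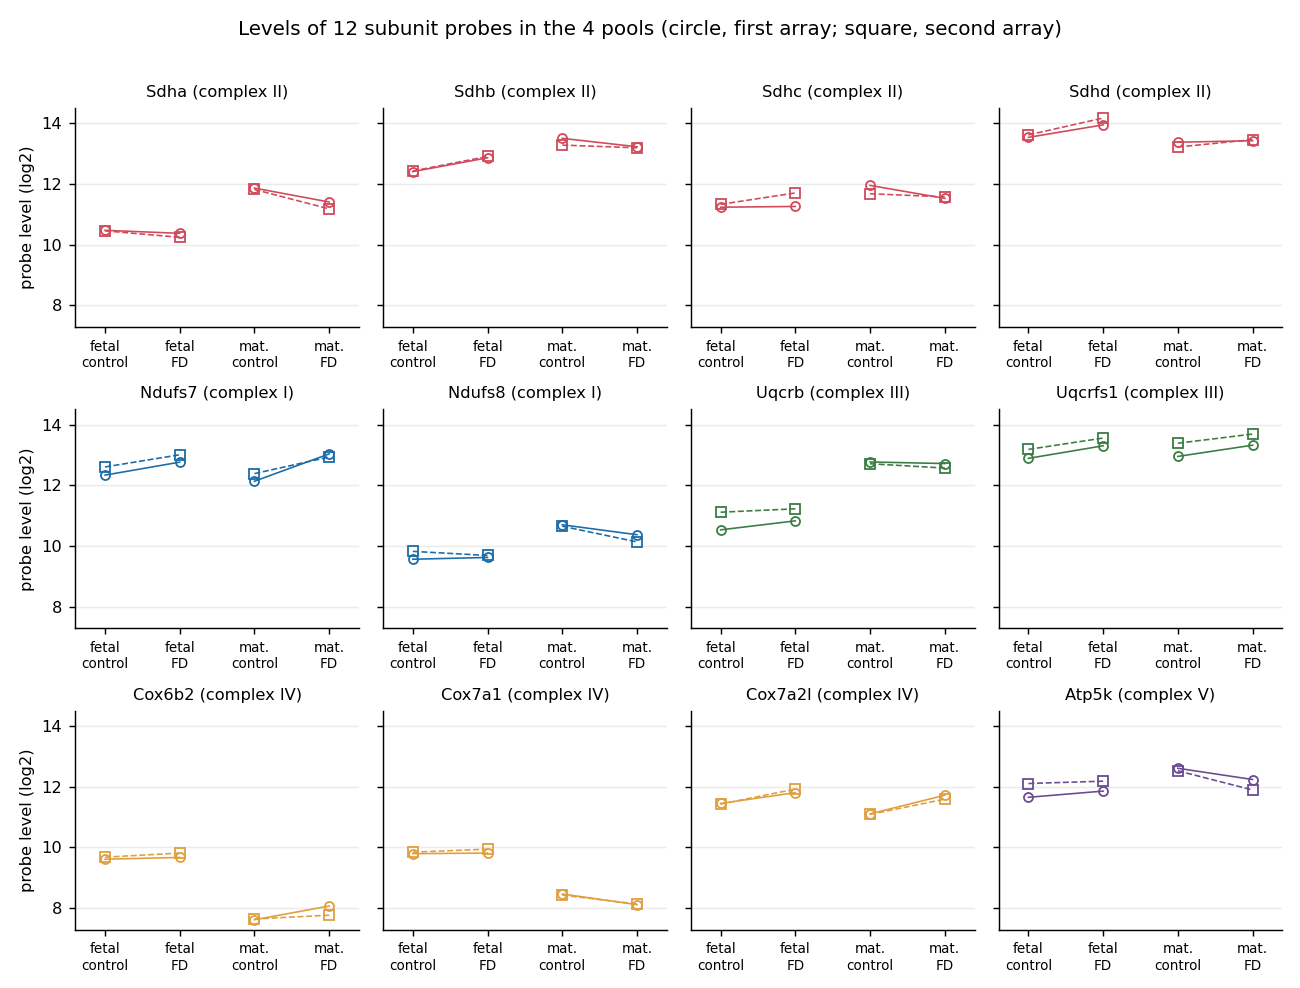
Normalised log2 intensity (y axis) of the brightest probe of 12 subunits in the fetal control, fetal FD, maternal control and maternal FD pools; circles and solid lines are the first array, squares and dashed lines the second. Sdhb and Sdhd lie higher in the fetal FD than in the fetal control pool on both arrays, Sdha and Atp5k lie lower in the maternal FD than in the maternal control pool, and levels can be compared within a panel but not between probes.

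Complex III, the cytochrome bc1 complex, had all 7 subunits above 0 in the fetus, from 0.16 (Uqcr, named Uqcr11 in RefSeq) to 0.39. The highest was Uqcrfs1, the Rieske iron-sulfur protein that takes electrons from ubiquinol. It rose in the fetus (0.41 and 0.37, 1.31-fold) and was at 0.37 and 0.30 in the mother, where the second array missed the 25%. In the mother the other 6 subunits lay between -0.10 (Uqcrb, at -0.05 and -0.14) and 0.12.

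Complex IV, cytochrome c oxidase, had 13 of 14 measured subunits above 0 in the fetus, and in the mother 12 of 16. Cox7a2l, placed in complex IV by its name, rose on both sides. Its ratio was 0.36 and 0.50 in the fetus (mean 0.43, 1.34-fold) and 0.61 and 0.50 in the mother (mean 0.56, 1.47-fold). Its levels were 11.44 and 11.42 in the fetal control pool, 11.80 and 11.92 in the fetal FD pool, 11.10 and 11.08 in the maternal control pool and 11.71 and 11.59 in the maternal FD pool. It and Ndufs7 were the 2 subunits called higher on both sides. Its relative Cox7a2, the form found in most tissues, was at -0.10 and -0.01 in the fetus, the lowest of complex IV, and at 0.09 on both arrays in the mother. Cox7a1, the heart and skeletal muscle form, was at 0.02 and 0.10 in the fetus and at -0.35 and -0.29 in the mother, the lowest maternal mean of complex IV.

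Among the other isoforms, Cox6a1, the widespread form, gave opposite signs on the arrays in the fetus (0.51 and -0.34), and the muscle form Cox6a2 was at 0.27 and 0.10. In the mother Cox6a1 was at 0.29 and -0.12, and Cox6a2 at -0.06 and -0.04. Cox6b1 was at 0.30 and 0.03 in the fetus and at 0.31 and -0.05 in the mother. Its testis form Cox6b2 was at 0.06 and 0.14 in the fetus and at 0.45 and 0.12 in the mother. Cox7b was at 0.41 and 0.03 in the fetus and at 0.25 and -0.21 in the mother. Cox8a was at 0.23 and 0.11 in the fetus and at 0.06 and 0.23 in the mother. Ndufa4, once assigned to complex I and now counted with complex IV, was at 0.12 and 0.14 in the fetus and at 0.07 and -0.06 in the mother. None of these passed a rule.

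Cox4i2, a form known from lung, and Cox8c, known from testis, were not well above background in any pool, and Cox8b, a muscle and brown fat form, was so on both arrays only in the maternal FD pool (ratio 0.31 and 0.11). Of 6 brown fat markers 3 were measured in the mother. Cidea rose by the 2-fold rule (1.86 and 1.32), against 1.56% of all genes, and Elovl3 rose by the 25% rule (0.92 and 0.37), against 6.93%. Prdm16 was at -0.04 and 0.03. Of the 2 measured in the fetus Cidea fell by the 25% rule (-0.86 and -0.60), against 2.38% of all genes. Ucp1, the defining marker, was not well above background in any comparison, and a part of brown fat in these values was not tested. Cox4i1, the main form of its subunit, and Ndufs3, Ndufa6 and Atp5e lacked a value on the first fetal array because their spot was an outlier there, and are named for that reason. On the second fetal array they were at 0.27, 0.14, 0.14 and -0.15, and Cox4i1 was at 0.17 and 0.22 in the mother. These 7 genes are the members without a fetal value.

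Complex V, the ATP synthase, had 12 of 14 measured subunits above 0 in the fetus on the mean, but 6 of 14 on both arrays. None passed the 25% rule there, and the means ran from -0.05 (Atp5g1) to 0.28 (Atp5l). Atp5k, subunit e of the membrane part, where it helps ATP synthase form dimers, fell in the mother (-0.37 and -0.63, mean -0.50, 1.41-fold) and was at 0.20 and 0.08 in the fetus. Its levels were 11.65 and 12.10 in the fetal control pool, 11.85 and 12.18 in the fetal FD pool, 12.60 and 12.52 in the maternal control pool and 12.23 and 11.89 in the maternal FD pool. The maternal FD values lay below the maternal control values without overlap, and the fetal values overlapped.

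The 3 genes Atp5g1, Atp5g2 and Atp5g3 encode the same mature ring subunit c. Atp5g3 was at 0.70 and -0.16 in the fetus and at 0.81 and 0.13 in the mother, the highest maternal mean of complex V (0.47), with most of it on the first array. Atp5g1 was at -0.08 and -0.03 in the fetus and at -0.24 and -0.10 in the mother, and Atp5g2 at -0.13 and 0.23, and at -0.23 and 0.02. Atp5a1, a catalytic-head subunit, was at 0.75 and 0.18 in the mother by its brightest probe, while its second probe had a mean of -0.06 there, the widest range between probes of a member in the mother (0.53). Over all members, the probes of a gene shared 1 direction for 15 of 22 genes with over 1 measured probe in the fetus, and in the mother for 15 of 20.

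Of the 3 genes that match by name alone, Ndufaf1 fell in the mother (-0.61 and -0.50, mean -0.56, 1.47-fold) and was at -0.05 and 0.00 in the fetus. Atp5s was at 0.38 and 0.13 in the mother and Cox4nb at 0.58 and 0.11. In the fetus these were at 0.19 and 0.11, and at 0.12 and -0.19.

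Set against each other within the same dye orientation, the maternal ratio of most subunits lay below the fetal ratio. The maternal minus fetal difference had a median of -0.19 over 72 subunits (-0.22 and -0.19), 62 of them below 0 and 57 below 0 on both arrays, against a median of -0.02 over all 15602 genes with the same probe measured on both sides. By the 25% rule 12 subunits had a lower maternal response (16.7%, against 11.4% of all genes) and none a higher one (against 7.41%). Of the 715 genes within the subunits' interquartile intensity, 25.04% had a lower and 16.4% a higher maternal response by this rule, with a median of -0.05. None was called by the 2-fold rule, against 1.76% of all genes lower and 1.23% higher. With median centring 2 of the 12 calls remained, Sdhb and Cox7a1, and with the processed signals 11, all but Ndufa7. Under median centring 6.72% of all genes were lower, and equally bright genes had medians of 0.20 and -0.98. The mean over probes ended the calls of Ndufa7 and Ndufc1, and the authors' deposited table those of Ndufa7 and Sdha. With the mean over probes Ndufab1 was called higher, so the absence of a higher call depends on the probe chosen. Its dimmer measured probes had mean ratios of -0.44 and -0.12 in the fetus, and 0.27 and 0.48 in the mother.

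The 12 subunits were Sdhb, Atp5k, Ndufb6, Sdhc, Ndufa13, Ndufb10, Ndufc1, Sdha, Ndufs8, Ndufa7, Cox7a1 and Ndufb4, so 7 of them belong to complex I and 3 to complex II. The largest differences were those of Sdhb (-0.73 and -0.57, mean -0.65, 1.57-fold) and Atp5k (-0.58 and -0.71, mean -0.64, 1.56-fold). Ndufb6 followed with -0.49 and -0.61, Sdhc with -0.45 and -0.48, Ndufa13 with -0.52 and -0.39, and Ndufb10, of the membrane arm, with -0.44 on both arrays. All 4 subunits of complex II and all 7 of complex III had a lower maternal response on both arrays, the smallest difference being that of Uqcrfs1 (-0.04 and -0.07). By the brightest probe of each gene, the highest difference was that of Ndufs7 (0.47 and 0.15, mean 0.31). Medians by complex were -0.23, -0.43, -0.20, -0.13 and -0.13 from complex I to V.

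On both arrays 18 of the 72 subunits were above 0 in the fetus and below 0 in the mother, against 1558 of all 15619 genes measured on both sides (9.98%). The reverse held for 1 subunit, Cox7a2, against 1143 of the 15619 genes. Across the 72 subunits the fetal and maternal means had a Pearson correlation of 0.51, and across all 15619 genes measured on both sides 0.37. Genes are not independent replicates, and the points share pools and arrays, so both are descriptions.

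**Figure D3:**
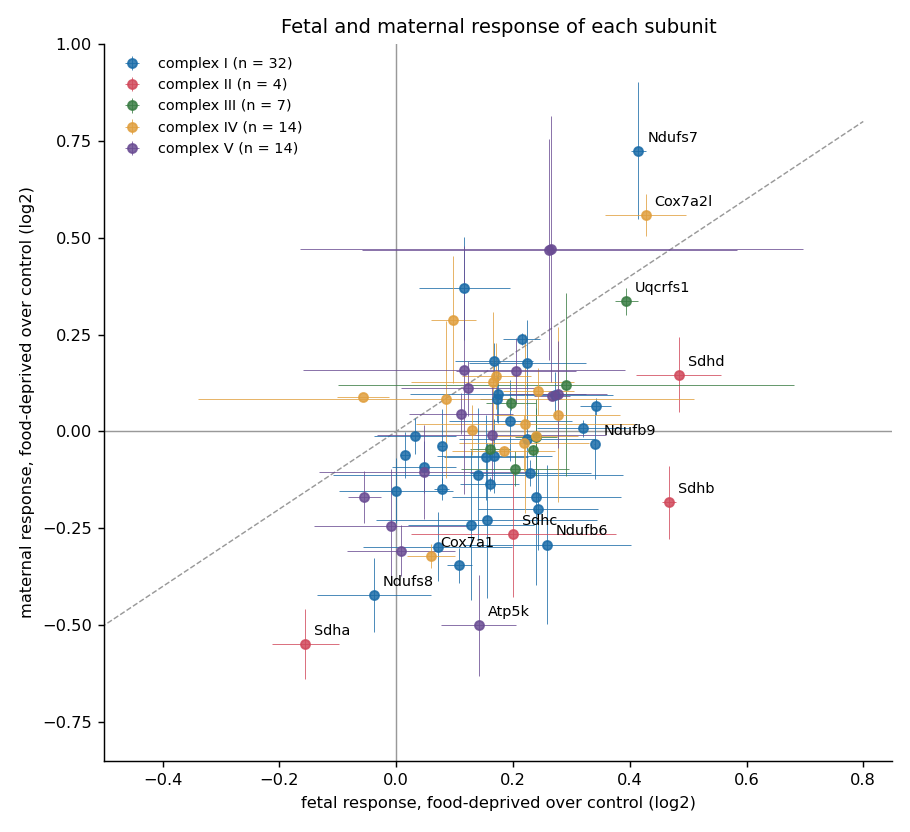
Mean log2 response of each subunit drawn (1 is left out) in fetal liver (x axis) and maternal liver (y axis), coloured by complex; error bars reach to the values of the first and second array, and the dashed line marks equal responses. Most points lie below the dashed line, and Ndufs7 and Cox7a2l are the pair called higher on both sides.

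Between the control pools, most subunits of complexes I, II, III and V had values above 0, that is on the maternal side (10 of 14 in complex V), and most of complex IV below. Over the 72 subunits with a value, the maternal minus fetal control level had a median of 0.20 (0.20 and 0.22), with 50 above 0, against 0.03 over 18091 genes. By the 2-fold rule 3 subunits were higher in the maternal control pool (4.17%, against 9.2% of all genes) and 2 lower (2.78%, against 10.2%). By the 25% rule 17 were higher (23.6%, against 24.1%) and 7 lower (9.72%, against 23.3%). Of the 715 genes within the subunits' interquartile intensity, 33.4% were higher and 28.1% lower by this rule, so both shares of the subunits lay below those of equally bright genes. Medians by complex were 0.29, 0.75, 0.19, -0.19 and 0.08 from complex I to V.

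The direction of the bulk of these values depends on how the channels are scaled. With each channel scaled to its 75th percentile the median over all genes was 0.31, and with it the median of the subunits moved to 0.56 and that of complex IV to 0.14, so that complex IV changed sign. The subunits then lay 0.24 above all genes, against 0.18 as reported. The counts by the 25% rule moved to 35 higher and 2 lower with that scaling and to 22 higher and 2 lower with median centring, which is 94.6% and 91.7% higher among the called, against 70.8% as reported. The shares of all genes moved too, to 41.2% higher and 18.1% lower with that scaling, and to 21.2% and 18.1% with median centring.

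Uqcrb, the ubiquinone-binding protein of complex III, had the highest value: 10.53 and 11.11 in the fetal control pool and 12.77 and 12.71 in the maternal control pool (difference 2.24 and 1.60, mean 1.92, 3.78-fold). Sdha was 2.60-fold higher in the mother (1.39 and 1.36). Ndufs8 (1.14 and 0.83), Sdhb (mean 0.98) and Ndufa10 (0.78 and 1.03) were all higher by the 25% rule. So were Ndufa11, of the membrane arm of complex I (0.61 and 0.71), Atp5b, the catalytic beta subunit of ATP synthase (0.48 and 0.83), and Uqcrq, a small subunit of complex III (0.33 and 0.95), whose call ended with median centring and with the mean over probes. The call of Atp5b held with the mean over probes, but its dimmer probes were at 0.33 and 0.01, and at -0.44 in the only usable dye orientation. Ndufa12, of the N module, had the lowest value of complex I (-0.26 and -0.38) and passed no rule. For Uqcrb, Sdha, Ndufs8, Sdhb and Ndufa10 the values of the maternal control pool lay above those of the fetal control pool without overlap.

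The lower end was held by isoforms of complex IV. Cox6b2, the testis form, was 4.04-fold lower in the mother (-2.00 and -2.04), with levels of 9.61 and 9.67 in the fetal and 7.61 and 7.64 in the maternal control pool. Cox7a1, the muscle form, was 2.59-fold lower (-1.33 and -1.42), with levels of 9.79 and 9.84 in the fetal and 8.46 and 8.42 in the maternal control pool. Cox6a2, also a muscle form, was lower by the 25% rule (-0.52 and -0.35), and was well above background on 1 of 2 arrays in the maternal control pool. Their widespread counterparts were at 0.14 and 1.14 (Cox6b1), -0.33 and -0.46 (Cox7a2) and -0.20 and 0.08 (Cox6a1). Cox8a (-0.33 and -0.50), Cox7a2l (-0.34 on both) and, in complex V, Atp5g2 (-0.38 and -0.46) were lower as well. None of the last 3 calls held with the processed signals, and neither these nor those of Cox7a2 and Cox6a2 held with median centring or scaling to the 75th percentile, while Cox6b2 and Cox7a1 stayed past 2-fold in all of these.

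Markers of other cell types moved with this contrast. Of 15 skeletal and cardiac muscle markers, 13 were well above background on both arrays in the fetal control pool and 6 in the maternal control pool. Their summed linear level was 3580 and 3960 in the fetal and 1681 and 1698 in the maternal control pool. By the 2-fold rule 6 of 13 were lower in the mother (46.2%, against 10.2% of all genes), with a median of -0.93. Of 8 testis germ cell markers 6 were above background in the fetal and 3 in the maternal control pool, with a median of -0.17 and none past 2-fold. Erythroid markers were lower in the mother for 9 of 9 measured (median -3.58) and granulocyte markers for 8 of 8 (median -5.58), where markers not well above background in the mother enter with a bound. Between the fetal pools the muscle markers had a median of -0.20, where Cox7a1 was at 0.02 and 0.10. Of these markers 3 of 13 fell by the 25% rule (23.1%, against 2.38% of all genes). Macrophage markers fell in the mother for 5 of 9 by the same rule (55.6%, against 9.7% of all genes), with a median of -0.56. Their summed levels were 23582 and 21212 in the control and 14188 and 13152 in the FD pool. The part of these cells in the values of the subunits was not tested.

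**Figure D4:**
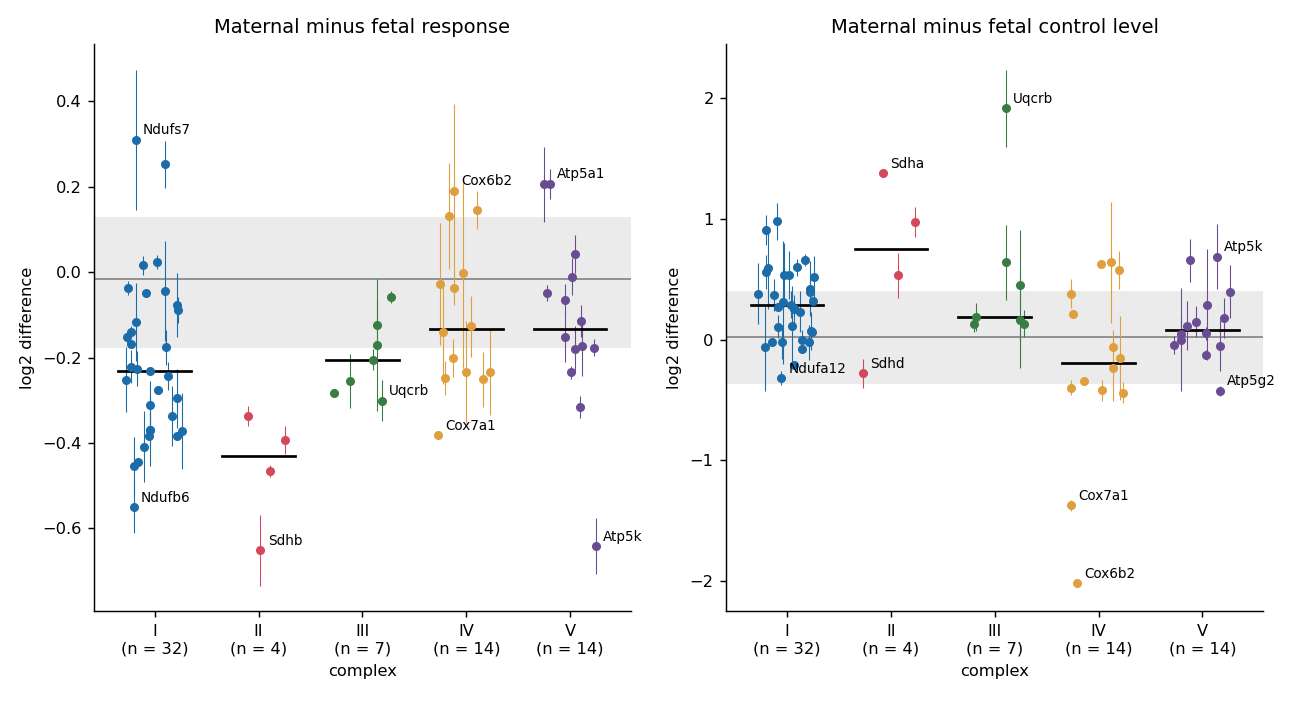
Maternal minus fetal response (left) and maternal minus fetal control level (right) of each subunit, as log2 differences (y axis) by complex (x axis); points are means, error bars reach to the values within each dye orientation, black bars are medians of the complexes, and the grey line and band show the median and interquartile range of all measured genes; 1 subunit is counted in the medians but not drawn. On the left the medians of all complexes lie below 0, and on the right Uqcrb and Sdha lie above 2-fold and Cox6b2 and Cox7a1 below.

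Other genes of the pathway were taken from lists. Among electron carriers and ubiquinone synthesis genes some maternal changes passed 2-fold. Of 16 measured in the mother, 3 rose and 2 fell by the 2-fold rule, against 1.56% and 1.88% of all genes. Cycs, cytochrome c, rose by 1.18 and 1.32, Etfdh, which feeds electrons from fatty acid oxidation to ubiquinone, by 1.29 and 0.95, and Gpd2, which feeds them from glycerol phosphate, by 1.19 and 0.94. Sqor, which feeds them from sulfide, fell (-1.57 and -1.54), as did Coq8a, of the ubiquinone synthesis complex (-1.58 and -1.41). In the fetus 0 of 16 passed the 2-fold rule, against 0.465% of all genes higher and 0.266% lower. The range there was from -0.29 (Coq4) to 0.69 (Etfdh), with a median of 0.16.

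Of 29 measured assembly and biogenesis factors none passed the 2-fold rule on either side. Of all genes 0.465% were higher and 0.266% lower by it in the fetus, and 1.56% and 1.88% in the mother. Coa6, a complex IV factor, had the highest mean on both sides (0.94 and 0.97 in the fetus, 0.74 and 0.51 in the mother). Acad9, a complex I factor, had the lowest maternal mean (-0.96 and -0.99) and was at -0.06 and 0.15 in the fetus. Uqcc2 was the lowest in the fetus (-0.29 and -0.48). By the 25% rule 2 rose (6.90%, against 3.86% of all genes) and none fell in the fetus (against 2.38%). In the mother 1 rose (3.45%, against 6.93%) and 4 fell (13.8%, against 9.7%).

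Among the regulators, Ppargc1b, a coactivator of mitochondrial genes, rose in the fetus by the 2-fold rule (0.91 and 1.14). It was 1 of 20 measured, against 0.465% of all genes, and was at 0.26 and 0.34 in the mother. Ppargc1a, its relative and a coactivator induced by fasting in liver, had the highest maternal mean (0.99 and 0.77), under 2-fold, and its fetal mean of 0.99 also lay just under 2-fold. Pprc1 was the lowest regulator in the fetus (-0.42 and -0.15), and Yy1 in the mother (-0.56 and -0.35). The fetal ratio of Yy1 was -0.15 and 0.06, yet its maternal minus fetal difference was 0.25 and 0.19. These values of Yy1 thus come from more than 1 probe, and its fall in the mother is that of a single probe. By the 25% rule 4 of 20 regulators rose in the fetus, against 3.86% of all genes, and none fell, against 2.38%. In the mother 4 of 19 rose (21.1%, against 6.93%) and 1 fell (5.26%, against 9.7%).

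A mixed list held mitochondrial carriers, uncoupling proteins, the Vdac channels, Nnt and Atpif1, and 11 of its genes were measured. By the 2-fold rule 1 of 11 rose in the fetus (9.09%, against 0.465% of all genes). This was Slc25a4, an ADP/ATP carrier of heart and muscle (1.12 and 0.90), which was lower in the maternal than in the fetal control pool (-2.12 and -1.61). Atpif1, the inhibitor of ATP synthase, fell in the mother (-1.01 and -1.08), 1 of 11 by this rule (9.09%, against 1.88% of all genes). Its maternal minus fetal control level was also below 0 (-2.59 and -2.99). In the citric acid cycle, 14 of 15 genes were above 0 in the fetus (median 0.26), from -0.31 (Cs, citrate synthase) to 0.45 (Pcx, pyruvate carboxylase), and none passed a rule. In the mother Fh1, fumarate hydratase, which takes the product of complex II, rose by 1.56 and 1.52. It was the only gene of 15 past 2-fold, against 1.56% of all genes higher and 1.88% lower, and Idh2 was the lowest (-0.48 and -0.62).

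Lists of other mitochondrial and ribosomal genes gave a frame for the medians. The mitochondrial ribosome had a median of 0.00 in the fetus (78 measured, 40 above 0) and -0.04 in the mother (77), and the mitochondrial import machinery 0.06 (21) and 0.06 (22). In the import list Timm10 rose in the mother (1.21 and 1.26), the only one past 2-fold, against 1.56% of all genes higher. The cytosolic ribosome, whose probes are bright, had 0.05 in the fetus (0.22 and -0.14) and 0.15 in the mother. Between the control pools the medians were 0.21 for the mitochondrial ribosome, -0.09 for the import machinery and -0.71 for the cytosolic ribosome, against 0.20 for the subunits.

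The promoters were searched because many subunit genes are known targets of a few factors: NRF1, GABP, ERR and YY1. RefSeq (build GRCm38.p6) gave a start for 65 of the 79 subunits, and the 250 bases before it were searched on both strands for GCATGCG (NRF1), CCGGAAG (GABP), AAGGTCA (ERR) and AAGATGG (YY1), which differ from each other on both strands, while the NRF1 motif can overlap itself on the opposite strand. NRF1 letters stood in 8 of 65 (12.3%), against 3.07% of 27025 promoters, GABP letters in 11 (16.9%, against 7.05%), ERR letters in 5 (7.69%, against 4.05%) and YY1 letters in 0 (against 4.53%). Bases past the start were not searched, so the 0 for YY1 covers this window only. At least 1 motif stood in 21 of 65 (32.3%, against 17.4%). The subunit promoters were richer in CG pairs (median 14 against 6) and had 56.4% G or C against 52.0%. Of the 5 subunits that rose in the fetus and had a promoter here, 2 held a motif, as did 4 of 11 with a lower maternal response.

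Shown in full are Sdhb and Sdhd, the pair that rose most in the fetus, and Atp5k, the complex V gene that fell in the mother, each as the 250 bases before the start with motif letters in capitals. They lie at chr4:140961021-140961270 on the plus strand (Sdhb), chr9:50603850-50604099 on the minus strand (Sdhd) and chr5:108434400-108434649 on the minus strand (Atp5k). The capitals mark an NRF1 motif 54 bases before the start of Sdhb, a GABP motif on the opposite strand 46 bases before that of Sdhd, and overlapping NRF1 motifs on both strands from 49 bases before that of Atp5k. A match is a description of the letters only.
Sdhb: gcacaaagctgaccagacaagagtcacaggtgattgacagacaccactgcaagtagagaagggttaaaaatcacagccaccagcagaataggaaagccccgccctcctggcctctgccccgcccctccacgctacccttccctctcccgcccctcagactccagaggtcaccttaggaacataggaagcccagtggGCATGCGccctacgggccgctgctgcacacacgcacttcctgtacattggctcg
Sdhd: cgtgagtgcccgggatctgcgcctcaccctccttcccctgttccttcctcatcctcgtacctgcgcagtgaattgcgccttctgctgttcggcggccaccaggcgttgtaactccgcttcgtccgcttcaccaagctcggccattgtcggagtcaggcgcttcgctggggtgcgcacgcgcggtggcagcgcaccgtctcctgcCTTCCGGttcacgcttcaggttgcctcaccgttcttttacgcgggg
Atp5k: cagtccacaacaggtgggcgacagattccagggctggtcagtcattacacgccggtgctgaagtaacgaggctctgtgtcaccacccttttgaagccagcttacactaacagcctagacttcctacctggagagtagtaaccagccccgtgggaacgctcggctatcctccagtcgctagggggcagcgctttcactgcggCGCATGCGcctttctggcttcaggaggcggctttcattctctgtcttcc

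The messages of the searched factors were measured too. Nrf1 was at 0.07 and -0.07 in the fetus and at 0.22 and -0.05 in the mother, and Gabpa at 0.07 and -0.02, and at 0.28 and 0.06. Esrra, which encodes an ERR, was at 0.21 and 0.64 in the fetus and rose in the mother by the 25% rule (0.35 and 0.37).

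**Figure D5:**
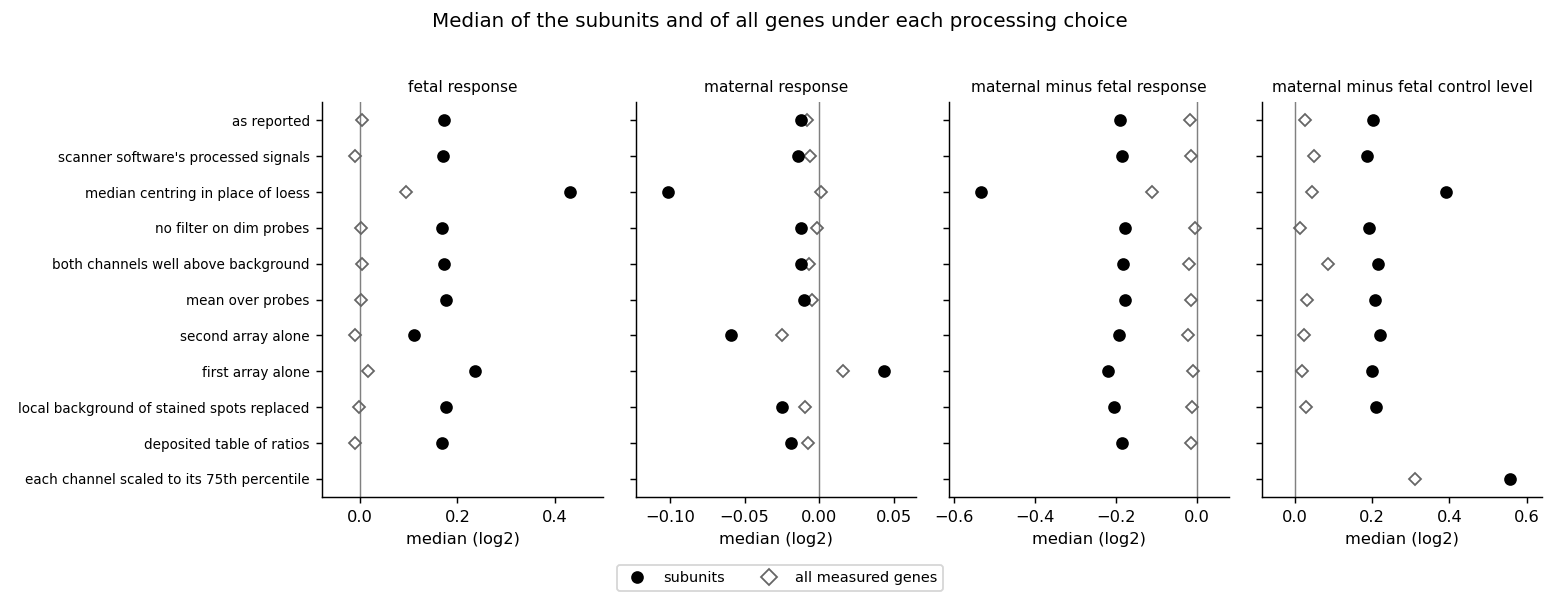
Median log2 value of the subunits (filled circles) and of all measured genes (open diamonds) for the 4 contrasts (panels; x axes differ in range) under each processing choice (rows). The fetal median of the subunits stays between 0.11 and 0.43 and the maternal minus fetal median between -0.53 and -0.18, while the maternal median lies on either side of 0 when 1 array is used. The ends 0.43 and -0.53 come from median centring, under which the arrays parted. The first and second array then gave 1.44 and -0.56 in the fetus, and 0.08 and -1.15 for the difference.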

How the data were processed

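RNA of pooled fetal or maternal livers was hybridised on 4 two-colour Agilent arrays with 60-base probes, and per the labels each comparison had 2 arrays with the dyes swapped. The deposited scanner files hold intensity values per spot and dye, and log10 ratios of red over green, made by the authors with Agilent Feature Extraction (9.5.1.1 per the file headers, 9.5.3.1 per the submitters' processing notes). A deposited table of ratios holds other values of the same arrays: set against the processed signals, its columns are linear ratios of red over green with a minus sign on arrays with FD in Cy5, the meaning of which is not stated (column medians -0.92, 0.94, -0.88 and 0.88). The direction of every value here comes from the dyes in the labels.

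Spot means and local backgrounds were combined with normexp (offset 50, which draws dim probes' ratios toward 0) and normalised within arrays by loess with limma 3.58.1 in R 4.3.3. Control spots had weight 0, outlier spots were left out, ratios were turned to FD over control, and spots of a probe were averaged. For levels, Aquantile normalisation gave the mean intensity of both channels the same distribution on all arrays and left the ratios unchanged. Channel levels were rebuilt from both, and control pools were compared within the same dye. A gene was measured when 1 of the compared pools was well above background on both arrays, and a change was called by the 2-fold or 25% rule. The number of arrays limits the precision. Names came from RefSeq by accession for 22951 of 41174 probes and otherwise from the files. The scripts were tested on simulated data.

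Named members are those past the 2-fold rule, the highest and lowest of each complex and contrast, the 4 of complex II, isoform pairs, and up to 12 past the 25% rule per contrast. In other lists they are those past 2-fold, or else the highest and lowest. The factors of the searched motifs, marker genes, and genes named for a missing value were chosen apart from this rule. A member that the rule names is counted but not reported here. Members and lists were chosen with earlier results of these data known. Alternatives were other background corrections, normalisations, filters and probe rules, single arrays and the deposited table.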

Additional observations from a re-analysis of the deposited data

Results flagged for a closer look

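For 11 subunits the ratios of both arrays lay on one side of 0 in the fetus and on the other side in the mother. The difference between fetus and mother was not tested, since each condition was taken as 1 pool. Most of these ratios passed no rule within their own comparison, and some lay near 0, such as those of Cox7a2 in the fetus (-0.10 and -0.01) and of Cox6a2 and Uqcr in the mother (-0.06 and -0.04, and -0.03 and -0.05). For 10 of them the fetal ratio was above 0 and the maternal ratio below. Their maternal minus fetal differences (log2) were -0.65 for Sdhb and -0.47 for Sdhc in complex II, and -0.64 for Atp5k in complex V. In complex I they were -0.55 for Ndufb6, -0.45 for Ndufa13 and -0.44 for Ndufb10. In complex III they were -0.30 for Uqcrb and -0.20 for Uqcr, and in complex IV -0.38 for Cox7a1 and -0.23 for Cox6a2. Cox7a2 went the other way, with 0.15. Only subunits named above by the rule were searched, and 18 of all 72 subunits had the first pattern.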

How the results depend on the processing

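No paired analysis was possible because no result comes from a test and the replicate number goes with the dye orientation. No median of the subunits changed sign under any alternative that used both arrays. Of the medians and counts recomputed, 162 values moved little and 38 moved, and the cause was not tested. Median centring in place of loess gave a fetal median of 0.43 with 0 higher, a maternal median of -0.10 with 0 higher and 0 lower, a difference of -0.53 with 2 lower, and a control level of 0.39 with 6 higher by the 2-fold rule and 2 lower by the 25% rule. Genes as bright as the subunits moved too under it, to 0.26 in the fetus. The processed signals gave, in the mother, 1 higher by the 2-fold rule (Cox8b) and 5 by the 25% rule, in the difference 1 higher, and between control pools a median of 0.19 with 4 lower. Of the maternal calls 62.5% were then higher, against 2 of 5 as reported. Among all genes the processed signals had 4.09% higher in the mother by the 2-fold rule and 15.2% by the 25% rule. In the difference 16.3% of all genes were higher, and between control pools 33.7% were lower. The deposited table gave 1 and 5 higher in the mother and 1 higher in the difference, as did the mean over probes for the difference (Ndufab1). Among all genes the deposited table had 4.11% and 15.1% higher in the mother and 16.3% in the difference, where the mean over probes had 6.39%. Replacing the background of stained spots gave 5 lower in the mother, against 11.1% of all genes. Scaling to the 75th percentile gave a control level of 0.56, with 7 higher by the 2-fold rule, and 35 higher and 2 lower by the 25% rule. The shares of all genes were 11.1%, 41.2% and 18.1% in the same order. Without the subunits in the brightest 1%, an alternative chosen after seeing the data, the difference was -0.21. With single arrays, where the 25% rule asks for 1 array only, the fetus had 11 to 24 higher and 0 to 1 lower, the mother 2 to 9 higher and 8 to 9 lower, the difference a median of -0.22 to -0.19 with 0 to 2 higher and 15 to 22 lower, and the control level 0.20 to 0.22 with 3 to 5 higher by the 2-fold rule and 27 to 28 by the 25% rule. Of all genes 6.17% to 9.32% were then higher and 5.58% to 6.16% lower in the fetus. In the mother 8.52% to 16.1% were higher and 14.3% lower. In the difference 8.70% to 14.1% were higher and 14.7% to 15.4% lower. Between control pools 9.35% to 9.82% were higher by the 2-fold rule and 28.7% to 29.2% by the 25% rule.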

Other observations

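Subunits that carry a later name fall outside the rule. Uqcr10, of complex III, had a fetal mean of 0.30 and a maternal mean of 0.26. Ndufv3, of complex I, was at 0.01 and -0.29, and 1.16 between the control pools. Among assembly factors so named, Ndufaf4 rose in the mother past 2-fold (1.24) and was at 0.72 in the fetus, and Ndufaf5 was at -0.55 in the mother. These genes were chosen after the files had been seen.

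The 4 probes for transcripts of mitochondrial DNA, noticed after the files had been seen, had fetal means of 0.00, 0.01, 0.29 and 0.04, and maternal means of -0.07, 0.06, -0.10 and -0.07. Their maternal minus fetal control levels were 0.66, 0.47, 0.46 and 0.84.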
